A study of Mus musculus with 16 samples.

Results

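The genes described here carry glucose to acetyl-CoA and through the tricarboxylic acid (TCA) cycle in mouse peritoneal macrophages. They are 35 genes named by symbol, of which 3 encode transporters, 11 the first steps of glycolysis, 6 its later steps, 4 the pyruvate dehydrogenase complex and 11 the TCA cycle. The cytosolic enzymes Idh1 and Mdh1 are counted with the TCA cycle here. All 35 were found in a count table of 15871 rows and all 35 passed the filter on low counts, which left 13527 rows for testing. RNA came from peritoneal macrophages of wild-type C57BL/6 mice aged 8 weeks that had been injected with 6% soluble starch, which draws macrophages into the peritoneum. The cells were cultured in DMEM with serum and sequenced after 48 h in 4 groups of 4 libraries. H_O received high glucose (33 mmol/L) with oxidised low-density lipoprotein (ox-LDL), which macrophages take up to become lipid-laden foam cells. L_O received ox-LDL in low glucose, H_C received the same high glucose alone, and L_C received low glucose with 27.5 mM mannitol as an osmotic control. The labels give the ox-LDL dose as 50 mg/ml and name no mannitol for L_O, so ox-LDL and mannitol cannot be told apart between L_O and L_C as labelled. By the same labels, glucose and osmolarity cannot be told apart between H_O and L_O. The labels do not say whether the 4 libraries of a group came from separate mice or cultures, so that p-values speak to variation among these libraries alone.

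In glycolysis, glucose is phosphorylated, split and oxidised to pyruvate, and ATP is made in the later steps. Pyruvate is either reduced to lactate and exported or enters mitochondria, where the pyruvate dehydrogenase complex turns it into acetyl-CoA for the TCA cycle. Macrophages are known to shift between these routes when they are activated, and the hypoxia-inducible factor HIF-1 is a textbook activator of glycolytic genes.

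The promoters of the members with the largest called rises and falls in both ox-LDL comparisons are shown first, because glycolytic genes are classical HIF-1 targets. Each run covers the 250 bases before a gene start annotated by RefSeq on GRCm38.p6 (mm10), on the strand of the gene. Capitals mark the hypoxia response element core, ACGTG or GCGTG, or the same letters read on the other strand, CACGT or CACGC. Pkm, Eno1 and Pgk1 encode later glycolytic enzymes that were higher with ox-LDL, while Hk3 and Slc2a6 encode a hexokinase and a sugar transporter that were lower.
Pkm, chr9:59656326-59656575, plus strand: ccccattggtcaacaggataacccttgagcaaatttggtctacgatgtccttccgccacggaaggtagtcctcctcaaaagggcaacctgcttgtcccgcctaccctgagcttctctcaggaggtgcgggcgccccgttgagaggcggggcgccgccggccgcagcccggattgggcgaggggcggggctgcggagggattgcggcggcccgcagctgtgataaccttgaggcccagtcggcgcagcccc
Eno1, chr4:150236458-150236707, plus strand: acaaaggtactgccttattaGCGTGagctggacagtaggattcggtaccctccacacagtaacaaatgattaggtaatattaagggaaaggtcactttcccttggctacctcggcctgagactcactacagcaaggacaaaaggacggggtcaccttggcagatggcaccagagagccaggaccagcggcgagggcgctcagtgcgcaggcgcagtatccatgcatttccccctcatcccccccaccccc
Pgk1, chrX:106186850-106187099, plus strand: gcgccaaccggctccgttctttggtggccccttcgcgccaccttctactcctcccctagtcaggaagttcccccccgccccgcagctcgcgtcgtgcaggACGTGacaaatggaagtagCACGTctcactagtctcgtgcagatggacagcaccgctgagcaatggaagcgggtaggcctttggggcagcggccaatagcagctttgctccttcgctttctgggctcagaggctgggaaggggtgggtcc
Hk3, chr13:55021386-55021635, minus strand: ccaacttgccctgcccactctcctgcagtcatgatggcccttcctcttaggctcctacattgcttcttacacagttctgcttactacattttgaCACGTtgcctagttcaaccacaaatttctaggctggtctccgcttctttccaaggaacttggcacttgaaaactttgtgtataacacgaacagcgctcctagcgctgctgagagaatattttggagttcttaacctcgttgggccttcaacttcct
Slc2a6, chr2:27027999-27028248, minus strand: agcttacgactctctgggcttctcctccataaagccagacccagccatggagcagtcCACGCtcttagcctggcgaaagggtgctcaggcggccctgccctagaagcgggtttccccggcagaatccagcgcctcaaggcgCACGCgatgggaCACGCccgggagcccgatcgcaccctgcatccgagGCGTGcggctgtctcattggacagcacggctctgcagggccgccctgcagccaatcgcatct
The Pkm window held no such core. It ends at a RefSeq start 208 bases from the start of the gene in the GENCODE annotation and lies mostly within that gene. Most of the bases before the GENCODE start of Pkm were thus not searched. The Eno1 window held 1, which began 230 bases before the start, and the Pgk1 window held 2, which began 150 and 131 bases before it. The core in the Hk3 window began 156 bases before the start, and the 4 cores in the Slc2a6 window began 193, 109, 97 and 62 bases before it. A window was found for 34 of the 35 members, all but Idh3a. The RefSeq start used also lay far from the GENCODE start in some other members, by 4329 bases in Ldha, 694 in Gapdh and 587 in Slc16a3. The core was present in 25 of the 34, or 73.5%, against 38.6% of all 32851 windows in the RefSeq table and 54.9% of the 12579 windows of tested genes. It was present in 4 of the 6 windows of members higher with ox-LDL in both glucose media and in 2 of the 2 windows of members lower in both. The E-box CACGTG, whose letters contain the hypoxia core, was in 2 of the 34 windows, or 5.88%, against 8.23% of the windows of tested genes. The antioxidant response element core TGACNNNGC, searched on both strands, was in 0 of the 34, against 11.6% of the windows of tested genes. These matches describe letters in a window and not bound sites.

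Library totals lay between 32596640 and 41712885 counts, and the ranges of the groups overlapped. Levels are given as CPM (edgeR's scaled counts, with TMM normalization), and levels of different genes are compared per kb of annotated exon. That length joins all annotated exons of a gene and can exceed the length of the transcripts present, so ranks and shares per kb are rough. The macrophage markers Lyz2, Cd68, Csf1r, Adgre1, Itgam, Mertk and Fcgr1 were all present, with a summed level of 19105 to 20615 CPM in H_O, 17979 to 18682 in L_O, 18237 to 18682 in H_C and 17139 to 19921 in L_C. Markers of B cells, of T and NK cells, of neutrophils and of dendritic cells summed to at most 9.16 CPM in any library. The 8 markers of mesothelial cells and fibroblasts summed to 32.7 to 99.3 CPM in H_O and 21.5 to 35.2 in L_O, against 36.1 to 197 in H_C and 54.2 to 76.5 in L_C, so that L_O lay below L_C without overlap. Their sum came mostly from the collagens, while Msln and Krt19, of mesothelial cells, reached at most 0.940 and 1.08 CPM. Of 8 markers of mast cells and eosinophils 3 were in the table, with sums of 4.70 to 5.87 CPM in H_O and 3.73 to 5.04 in L_O, against 19.5 to 23.6 in H_C and 14.3 to 20.7 in L_C. Nearly all of it was Siglecf, and Cpa3 and Kit reached at most 0.290 and 0.341 CPM. Erythroid and platelet markers summed to 9.02 to 18.2 CPM over all libraries. The 9 markers of large peritoneal macrophages summed to 107 to 115 CPM in H_O and 112 to 121 in L_O, against 205 to 225 in H_C and 211 to 261 in L_C. Those of small peritoneal macrophages and monocytes summed to 1132 to 1251 CPM in H_O and 1405 to 1445 in L_O, against 1295 to 1476 in H_C and 1710 to 2004 in L_C. Both of these macrophage sums were lower in each ox-LDL group than in its control. F10, the most abundant gene of the first list, averaged 71.8 CPM in H_O and 75.7 in L_O, against 158 in H_C and 169 in L_C. Itgax, the most abundant of the second, averaged 291 and 380 CPM, against 596 and 767. From H_C to H_O the mean of Itgax fell by more than the mean sum, so the other markers of that list together did not fall. The part of all these marker lists in the results was not tested. In bulk RNA, fewer cells of a type and less RNA per cell cannot be told apart.

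The library of L_C replicate 4 stood apart from the other 3 of its group. Genes of the mitochondrial genome took a share of 3.71% in it, while the remaining L_C libraries had 1.48% to 1.95% and no library of another group exceeded 2.30%. Of the 35 members, 28 were below the mean of the other L_C libraries, and the median ratio to that mean was 0.864, against 1.00 over 13512 rows. The members past 1.5-fold in either direction were Gapdh, at 3.28 times the mean of the others, and Pgk1, Pfkm, Slc16a3 and Mdh1, at 0.560, 0.583, 0.629 and 0.653 times. These 5 are 14.3% of the members, against 20.7% of all rows past the same ratio. The calls were therefore also made without this library. Values without it are given where it changed a call of a member, and for some other values that it moved. What sets that library apart was not tested.

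Gapdh encodes glyceraldehyde-3-phosphate dehydrogenase, a common reference gene. Its levels were 14.6, 17.1, 26.2 and 28.9 CPM in H_O, 15.9, 26.4, 15.96 and 27.5 in L_O, 31.1, 11.3, 18.8 and 17.9 in H_C, and 14.97, 20.9, 10.2 and 50.3 in L_C. The highest L_C library, replicate 4, stood 4.94-fold above the lowest, and the same ratio was 1.98 in H_O, 1.73 in L_O and 2.76 in H_C, so that all 4 groups overlapped. The variation between libraries of a group was 29.7% to 74.8% of the mean, against a counting error of 3.58% to 3.99%. Per kb of exon the gene averaged 5.26 CPM, rank 33 of the 35 members. Of its annotated exon stretches of 50 bases, 25.1% also occur in other annotated genes, 223 in number, of which 213 are pseudogenes and 5 are in the count table. The sources used here do not say how the counting treated reads from such stretches, and the level of Gapdh is uncertain. No contrast called Gapdh, and its 95% interval for L_O against L_C ran from -1.03 to 0.69 on the log2 scale, around a value of -0.17. Without L_C replicate 4 the direction turned, to 0.48 ± 0.31 (SE, adjusted p = 0.28).

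**Figure D1:**
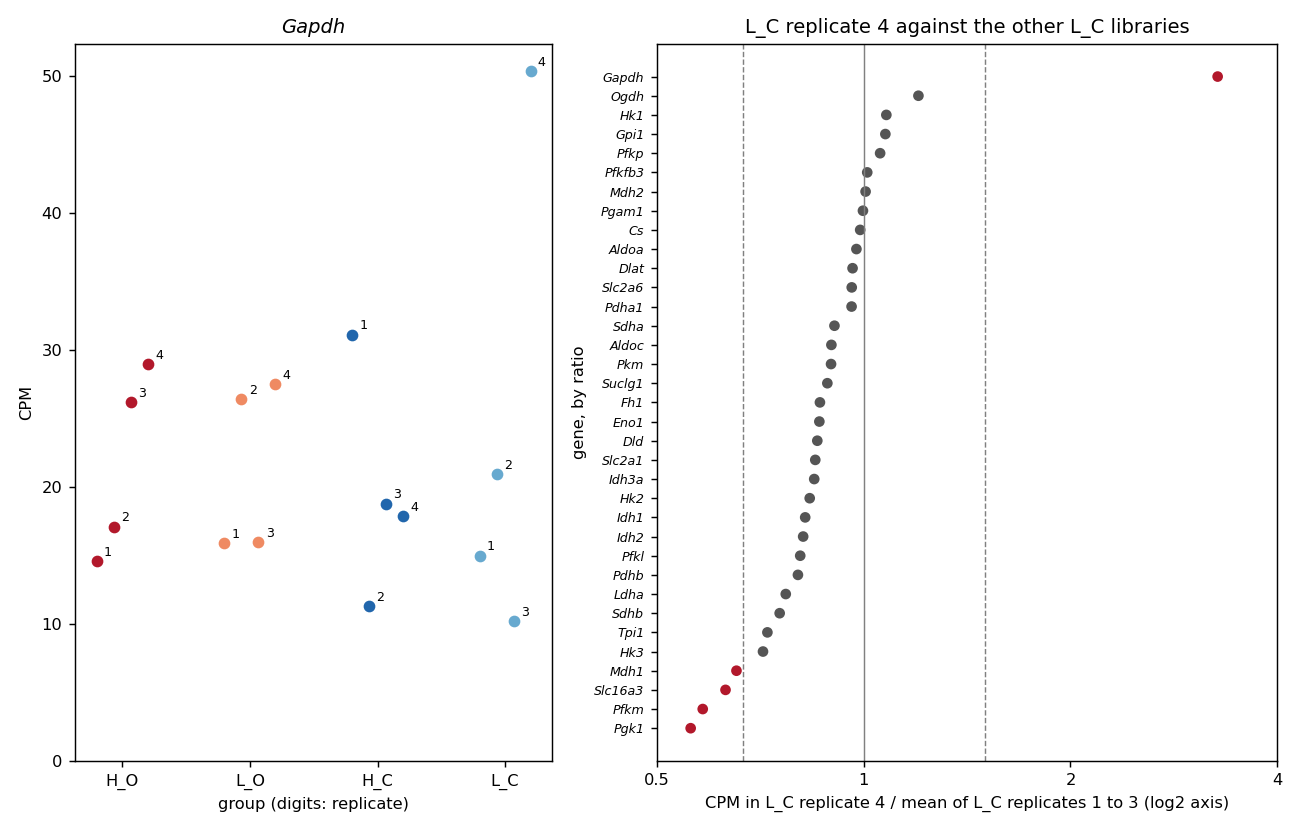
Left, Gapdh level in CPM (y axis) in each library of the 4 groups (x axis), with the replicate number beside each point. Right, the ratio of each member's CPM in L_C replicate 4 to the mean of the other 3 L_C libraries (x axis, log2 scale), with members past 1.5-fold (dashed lines) in red. The Gapdh point of L_C replicate 4 lies at 50.3 CPM, above every other library, while 28 of the 35 members lie below a ratio of 1.

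Per kb of exon, the most abundant members were Aldoa with a mean of 299 CPM, Pgam1 with 274, Pkm with 262, Hk3 with 219, Ldha with 133, Idh1 with 122 and Pgk1 with 116. The members of the first and later steps of glycolysis, without the 3 transporters, together took 0.640% ± 0.00899 of the counts in H_O and 0.586% ± 0.00791 in L_O, against 0.543% ± 0.00710 in H_C and 0.508% ± 0.0439 in L_C (SD, n = 4 each). The pyruvate dehydrogenase and TCA members took 0.185% ± 0.00116 in H_O and 0.190% ± 0.00220 in L_O, against 0.173% ± 0.000422 in H_C and 0.170% ± 0.0107 in L_C. L_C replicate 4 had the lowest share of its group in both sums, 0.443% and 0.154%. These shares are of raw counts, without TMM scaling. The TMM factors were 1.01 to 1.04 in the ox-LDL libraries and 0.932 to 0.994 in the controls. Scaling by them would narrow the differences between ox-LDL groups and controls.

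**Figure D2:**
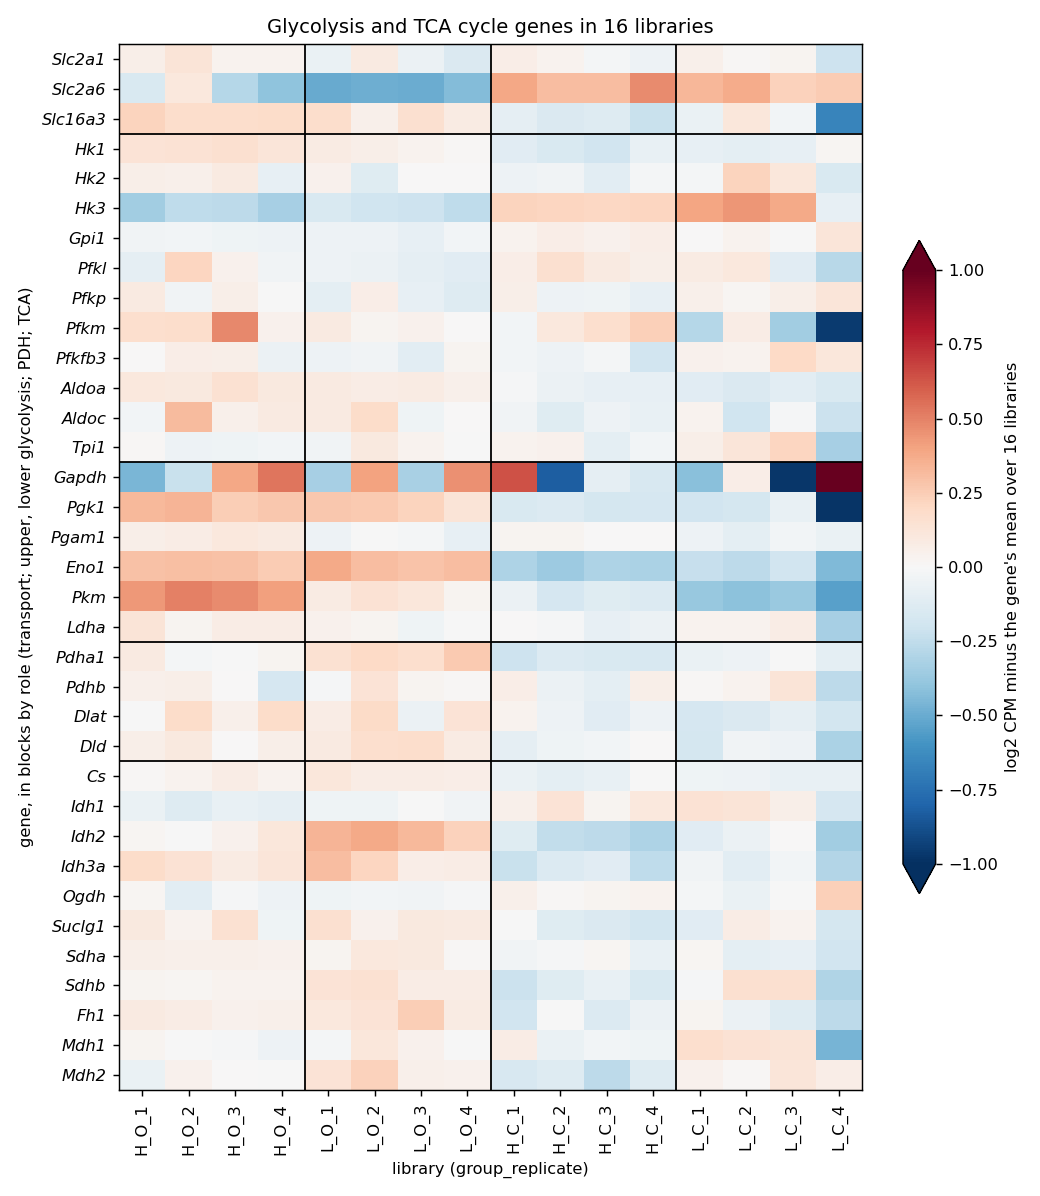
Each row is a member, in blocks by role, and each column a library, with H_O, L_O, H_C and L_C from left to right. Colour gives log2 CPM minus the mean of the gene over the 16 libraries, and the scale stops at 1 in either direction. Pkm, Eno1 and Pgk1 are above their mean in the 8 ox-LDL libraries, Hk3 is below it there, Slc2a6 is below it in all of these but H_O replicate 2, and Gapdh and L_C replicate 4 vary without that pattern.

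With ox-LDL, more members rose than fell in both glucose media. By edgeR's quasi-likelihood test with Benjamini-Hochberg adjustment over all 13527 rows and a threshold of 0.05, 12 members rose, 3 fell and 20 did not pass in L_O against L_C, a called share of 42.9% beside 25.8% of all tested rows. In H_O against H_C, 10 rose, 3 fell and 22 did not pass, a called share of 37.1% beside 21.9% of all tested rows. Of all tested rows, 12% rose and 13.8% fell in low glucose, and 10.4% rose and 11.5% fell in high glucose. Median log2 fold changes of the members were 0.09 and 0.10, against 0.000925 and 0.00894 over all rows. Without L_C replicate 4 the counts were 13 higher and 5 lower in low glucose and 16 higher and 4 lower in high glucose. Of all 13734 rows then tested, 1891 were higher and 1990 lower in low glucose, and 1964 and 2001 in high glucose. That library is in neither group of the high-glucose comparison. It entered there through the row filter, the scaling, the adjustment over tested rows and the estimate of the spread, which all libraries share. All 15 calls in low glucose and all 13 in high glucose remained, and the largest move among them was that of Pgk1, by 1.46 times. The calls added were Hk1, Idh1 and Mdh1 in low glucose, and Gpi1, Pgam1, Ldha, Cs, Suclg1, Sdhb and Fh1 in high glucose. With no scaling beyond library totals, 19 rose and 2 fell in each comparison. In 15 and 22 members the libraries of the groups did not overlap, beside 26.1% and 29.5% of all rows. The 7 members that rose in both media were Aldoa, Pgk1, Eno1, Pkm, Pdha1, Idh2 and Idh3a, and Slc2a6 and Hk3 fell in both.

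**Figure D3:**
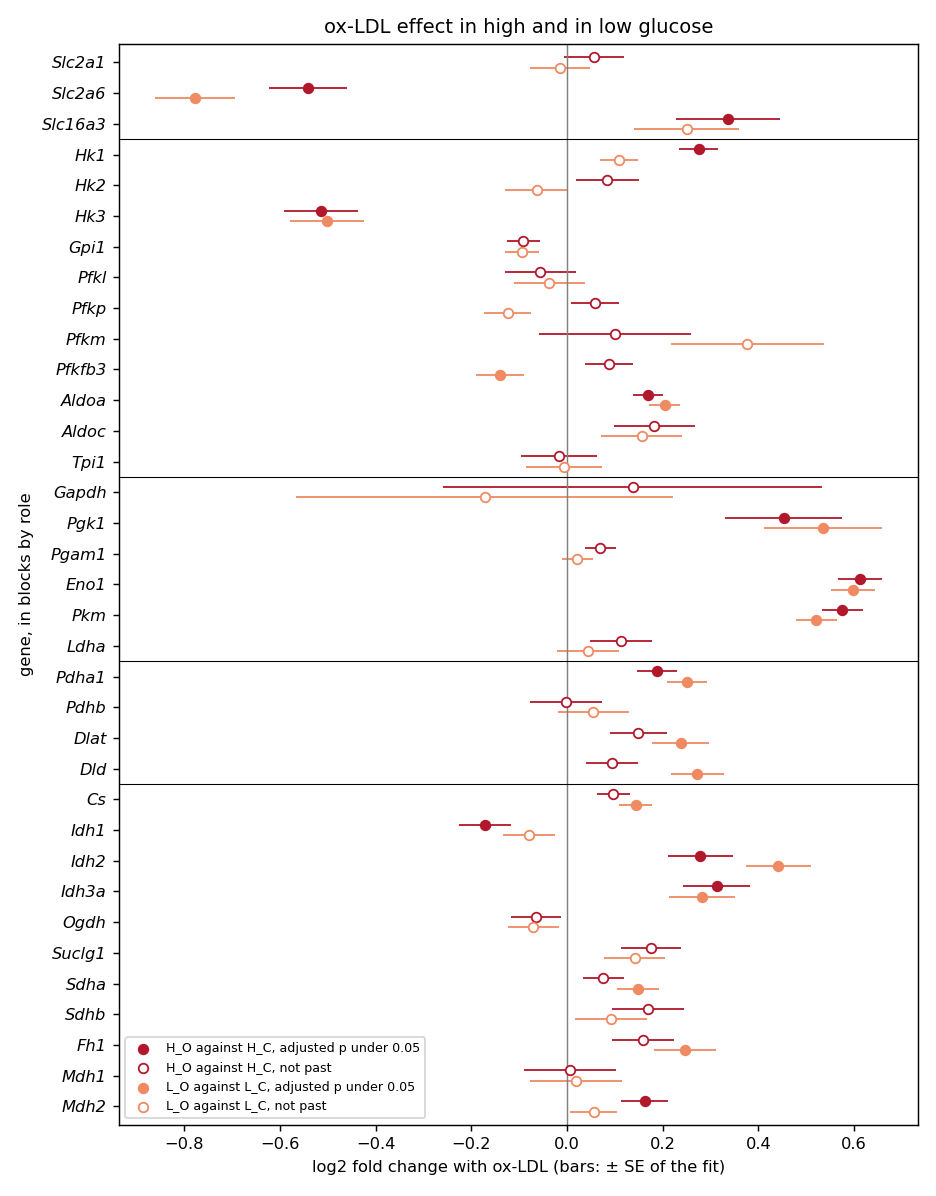
Log2 fold change with ox-LDL (x axis, bars give the SE of the fit) for each of the 35 members (y axis, in blocks by role), in high glucose (H_O against H_C, red) and low glucose (L_O against L_C, orange). Filled points passed an adjusted p of 0.05. Eno1, Pkm and Pgk1 lie furthest right in both media among filled points, at 0.61, 0.57 and 0.45 in high glucose, and Slc2a6 and Hk3 furthest left.

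Among the transporters, Slc2a6 fell with ox-LDL. It encodes GLUT6, a sugar transporter of intracellular membranes, at chr2:27021363-27027998 on the minus strand. Its levels were 35.0, 41.6, 31.9 and 29.4 CPM in H_O, 27.4, 27.6, 27.5 and 28.7 in L_O, 50.8, 48.0, 48.0 and 53.9 in H_C, and 48.9, 50.1, 45.4 and 46.2 in L_C. Every ox-LDL library lay below every library of its control, and H_O lay above L_O. The log2 fold change was -0.78 ± 0.08 (SE) for L_O against L_C, with an adjusted p of 1.12e-06, and -0.54 ± 0.08 for H_O against H_C, with an adjusted p of 7.39e-05. Slc2a1 encodes GLUT1, the main glucose importer of activated macrophages, and passed in no contrast, with 40.8 to 51.5 CPM over the 16 libraries. Its log2 fold change was -0.02 in low glucose and 0.06 in high glucose, with 95% intervals of -0.15 to 0.12 and -0.08 to 0.19, and the value in low glucose was -0.07 without L_C replicate 4. The lactate exporter MCT4, encoded by Slc16a3, averaged 30.8 ± 0.525 CPM in H_O and 29.3 ± 1.27 in L_O, against 24.4 ± 0.964 in H_C and 24.6 ± 5.25 in L_C (SD, n = 4 each). It rose in high glucose by 0.34 ± 0.11 on the log2 scale (adjusted p = 0.0338), and the call was lost when any 1 of the 8 libraries of H_C or H_O was left out. In low glucose its value was 0.25 ± 0.11 (adjusted p = 0.106), which fell to 0.11 without L_C replicate 4.

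Hexokinases phosphorylate glucose in the first step of the pathway. Hk3, a myeloid hexokinase at chr13:55005985-55021385, was the leading one, with 623, 662, 661 and 629 CPM in H_O, 711, 691, 686 and 662 in L_O, 923, 920.1, 915 and 920.0 in H_C, and 1039.6, 1073, 1031 and 748 in L_C. Both ox-LDL groups lay below both control groups without overlap, and L_C replicate 4 was the lowest control library. The log2 fold changes were -0.50 ± 0.08 (adjusted p = 7.96e-05) in low glucose, or -0.61 without that library, and -0.51 ± 0.08 (adjusted p = 7.01e-05) in high glucose. Hk1, the widely expressed hexokinase, had 116, 116, 118 and 115 CPM in H_O, 111, 109.7, 108 and 106 in L_O, 97.2, 94.7, 92.2 and 99.8 in H_C, and 99.3, 98.2, 99.2 and 107 in L_C. Its H_O libraries lay above all others, while L_O and L_C overlapped through L_C replicate 4 alone. Hk1 rose in high glucose by 0.27 ± 0.04 (adjusted p = 5.19e-05). In low glucose its log2 fold change was 0.11 ± 0.04 (adjusted p = 0.0564), and 0.14 without L_C replicate 4, where it passed (adjusted p = 0.00512). The inducible hexokinase Hk2 had 108, 107, 110.2 and 97.8 CPM in H_O, 106, 94.7, 103 and 104 in L_O, 99.7, 101, 95.9 and 102 in H_C, and 102, 120.4, 112 and 92.9 in L_C. All 4 groups overlapped for Hk2, and it passed in no contrast.

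Hk3 also took a smaller share of the hexokinase transcripts in the ox-LDL groups. Per kb of exon, Hk3 made up 84.8% ± 0.406 of the 3 hexokinases in H_O and 86.2% ± 0.393 in L_O, against 89.9% ± 0.235 in H_C and 89.8% ± 1.299 in L_C (SD, n = 4 each). The highest ox-LDL library stood at 86.7% and the lowest control library, L_C replicate 4, at 87.9%. Hk1 made up 6.61% in H_O and 5.89% in L_O, against 4.05% in H_C and 4.12% in L_C, and Hk2 8.58% and 7.90%, against 6.01% and 6.12%. These shares are descriptions with no test of their own.

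Gpi1, glucose-6-phosphate isomerase, passed in no contrast, with 304 to 349.9 CPM. Its ox-LDL libraries did not overlap with their controls in either medium, and its log2 fold changes were -0.09 (adjusted p = 0.0553) in low glucose and -0.09 (adjusted p = 0.0712) in high glucose. Without L_C replicate 4 it passed in high glucose, at -0.09 (adjusted p = 0.00674).

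Phosphofructokinase catalyses the committed step of glycolysis, and none of its 3 genes passed in any contrast. Pfkl, the liver-type subunit, had 99.1, 122, 109 and 103 CPM in H_O, 102, 101, 98.8 and 97.2 in L_O, 110.4, 118, 112 and 109 in H_C, and 112, 113, 97.4 and 86.8 in L_C. The platelet-type subunit Pfkp had 109.9, 101, 107 and 103 CPM in H_O, 96.1, 108, 97.3 and 94.5 in L_O, 107, 99.5, 99.999 and 97.2 in H_C, and 107, 105, 107 and 112 in L_C. The muscle-type subunit Pfkm was low, with 7.40, 7.41, 9.19 and 6.77 CPM in H_O, 6.98, 6.71, 6.78 and 6.61 in L_O, 6.47, 7.07, 7.37 and 7.78 in H_C, and 5.39, 6.91, 5.18 and 3.40 in L_C. All groups overlapped for each gene in the ox-LDL comparisons, and the lowest Pfkl and Pfkm values were those of L_C replicate 4. Per kb, Pfkl made up 61.4% of the 3 in H_O and 61.3% in L_O, against 63.5% in H_C and 61.3% in L_C. These shares rest on the exon lengths used, 6.675 kb for Pfkl and 13.4 kb for Pfkp. Without division by length, Pfkl and Pfkp averaged 106 and 103 CPM over the 16 libraries. Pfkfb3, which makes the activator fructose 2,6-bisphosphate, averaged 125 ± 5.02 CPM in H_O and 120.2 ± 4.52 in L_O, against 118 ± 6.21 in H_C and 133 ± 7.14 in L_C. It fell in low glucose by a log2 value of -0.14 ± 0.05 (adjusted p = 0.0493), a call that was lost in 16 of 26 other settings, and its value in high glucose was 0.09 ± 0.05 (adjusted p = 0.255).

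Aldolase splits fructose 1,6-bisphosphate, and Aldoa rose slightly in both media. Aldoa, at chr7:126795234-126800751, had 933, 929, 963 and 928 CPM in H_O, 926, 916, 919 and 898 in L_O, 863, 834, 819.9 and 821 in H_C, and 804, 786, 806 and 779.5 in L_C. Every ox-LDL library lay above every control library. Log2 fold changes were 0.20 ± 0.03 (adjusted p = 9.47e-05) in low glucose and 0.17 ± 0.03 (adjusted p = 0.000726) in high glucose. Aldoc, the brain-type aldolase, was far lower, with 18.7, 23.8, 19.8 and 20.3 CPM in H_O, 20.3, 21.7, 18.5 and 19.1 in L_O, 18.6, 17.5, 18.4 and 18.1 in H_C, and 19.5, 16.6, 18.9 and 16.4 in L_C. H_O lay above H_C without overlap, L_O and L_C overlapped, and Aldoc passed in no contrast. Aldoa made up 98.1% of both aldolases per kb in H_O and 98.1% in L_O, against 98.1% in H_C and 98.0% in L_C. Tpi1, triosephosphate isomerase, lay between 161 and 235 CPM and passed in no contrast.

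**Figure D4:**
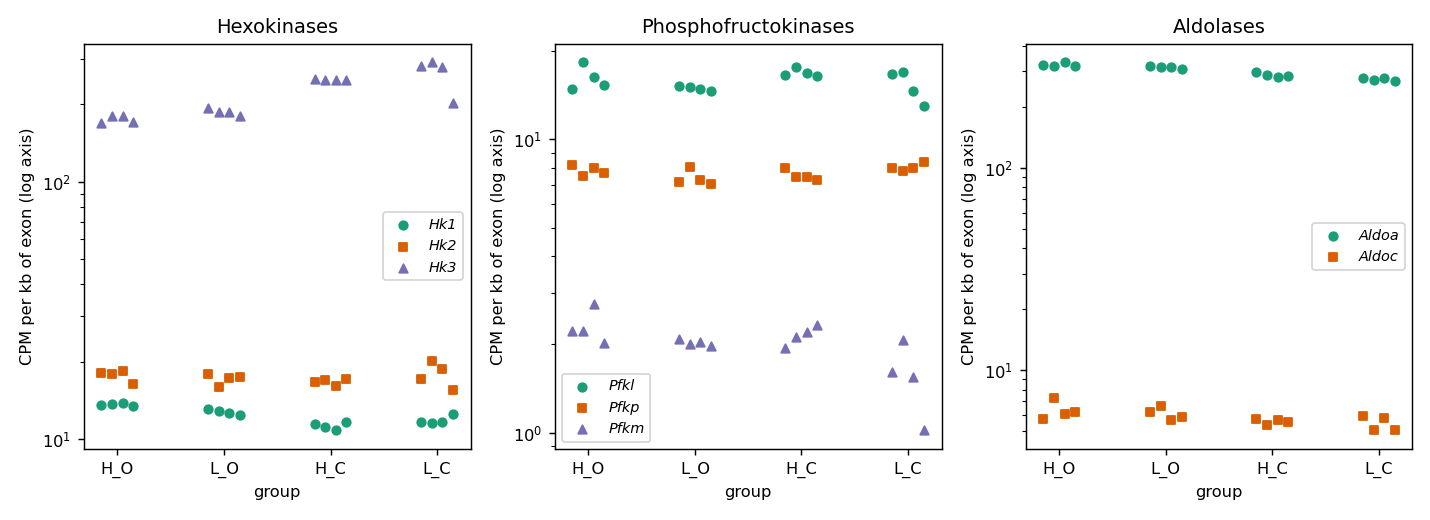
Levels of the hexokinase, phosphofructokinase and aldolase genes in CPM per kb of exon (y axis, log scale) in each library of the 4 groups (x axis), with a marker for each gene. Hk3 lies above Hk1 and Hk2, and Aldoa above Aldoc, in every library, and the Hk3 points of H_O and L_O lie below those of H_C and L_C.

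Of the 6 genes of the later steps, Pgk1, Eno1 and Pkm rose in both media. Pkm encodes pyruvate kinase, which makes pyruvate and ATP, at chr9:59656368-59679375. Its levels were 1725, 1807, 1767 and 1700.3 CPM in H_O, 1352, 1414, 1380.0 and 1303 in L_O, 1227, 1136, 1173 and 1164 in H_C, and 979.5, 959, 985 and 874 in L_C. The 4 groups did not overlap, and H_O was the highest and L_C the lowest. The log2 fold change with ox-LDL was 0.52 ± 0.04 (adjusted p = 4.47e-08) in low glucose, a fold of 1.44, and 0.57 ± 0.04 (adjusted p = 1.37e-08) in high glucose, a fold of 1.49. The M1 and M2 splice forms of Pkm cannot be told apart in counts per gene.

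Eno1 encodes enolase, which makes phosphoenolpyruvate, at chr4:150236721-150248879. It had 407, 409, 406 and 395 CPM in H_O, 431, 411, 403 and 409.7 in L_O, 267, 257, 267 and 266 in H_C, and 283, 277, 289.7 and 244 in L_C. Both ox-LDL groups lay above both controls, and H_O and L_O overlapped. Eno1 rose by 0.60 ± 0.05 (adjusted p = 2.15e-08) in low glucose and 0.61 ± 0.05 (adjusted p = 1.63e-08) in high glucose, folds of 1.51 and 1.53.

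Phosphoglycerate kinase, encoded by Pgk1 at chrX:106187100-106203699, makes the first ATP of the pathway. Its levels were 317, 321, 299.8 and 306 CPM in H_O, 305, 304, 295 and 277 in L_O, 228, 231, 224 and 226 in H_C, and 223, 224, 241 and 128 in L_C. All ox-LDL libraries lay above all controls, and L_C replicate 4 lay far below the other controls. Pgk1 rose by 0.53 ± 0.12 (adjusted p = 0.00319) in low glucose, by 0.37 without that library (adjusted p = 4.05e-07), and by 0.45 ± 0.12 (adjusted p = 0.0119) in high glucose. Stretches of 50 exon bases that also occur in other annotated genes made up 53.9% of Pgk1, 36.2% of Pgam1, 26.0% of Eno1 and 25.8% of Pkm, against under 10% in 27 of the 35 members. For Pgk1, Pgam1 and Pkm none of those genes was in the count table, while 8 of the 23 that share stretches with Eno1 were. The levels of these members are thus uncertain where the counting could split such reads.

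The other genes of the later steps did not pass with ox-LDL when all libraries entered the fit. Pgam1, phosphoglycerate mutase, averaged 576 ± 8.18 CPM in H_O and 529 ± 12.4 in L_O, against 549 ± 4.10 in H_C and 521 ± 11.04 in L_C. Ldha, which turns pyruvate into lactate, averaged 462 ± 13.4 CPM in H_O and 440.4 ± 11.2 in L_O, against 428 ± 10.9 in H_C and 427 ± 52.3 in L_C. Its log2 fold changes were 0.04 (adjusted p = 0.677) in low glucose and 0.11 (adjusted p = 0.25) in high glucose. Without L_C replicate 4, Ldha stood at -0.04 in low glucose (adjusted p = 0.371) and passed in high glucose, at 0.11 (adjusted p = 0.00504). Pgam1 then also passed in high glucose, at 0.07 (adjusted p = 0.0443).

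**Figure D5:**
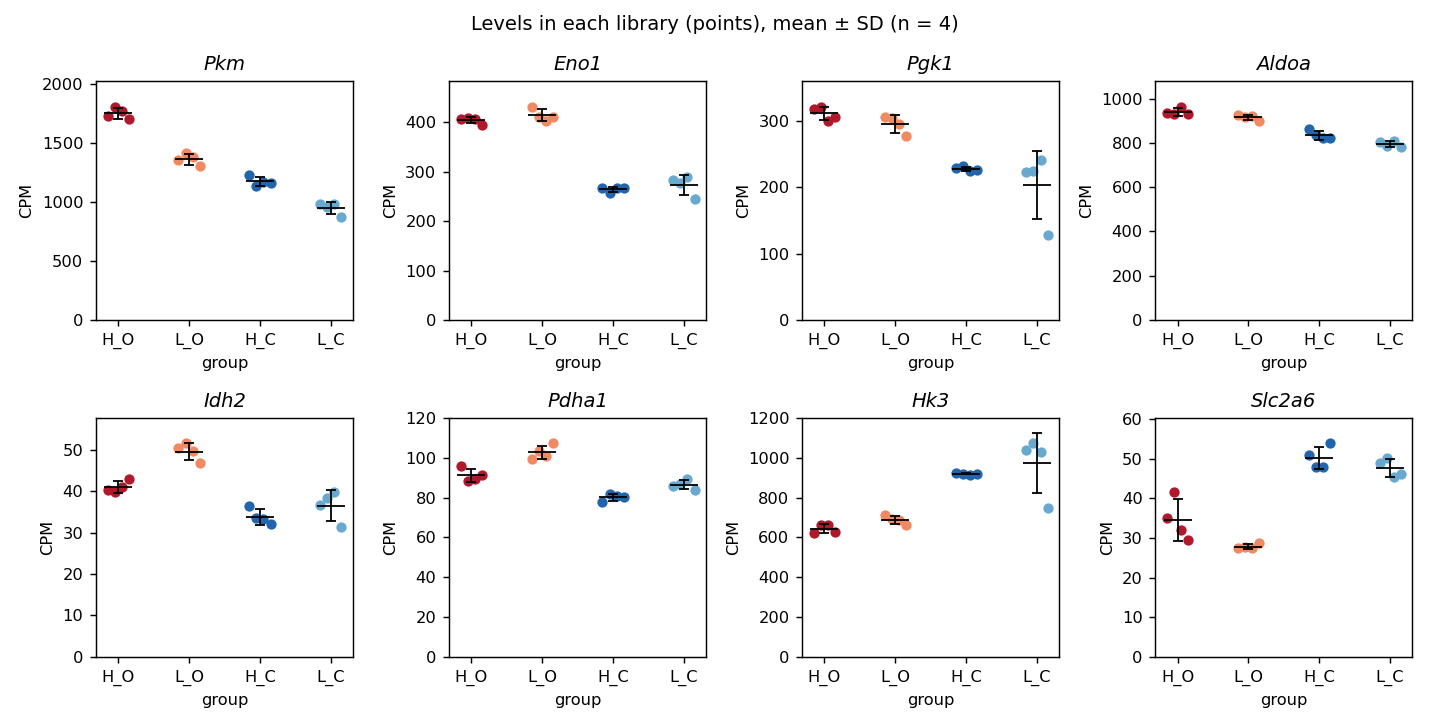
Levels in CPM (y axis, from 0) of 8 members in each library (points) of H_O, L_O, H_C and L_C (x axis), with the mean and SD of the 4 libraries in black. Pkm, Eno1, Pgk1 and Aldoa lie higher in H_O and L_O than in H_C and L_C, Hk3 and Slc2a6 lie lower, and Idh2 and Pdha1 are highest in L_O.

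The pyruvate dehydrogenase complex joins 3 enzymes, and members of each were higher with ox-LDL in low glucose, where Pdha1, Dlat and Dld rose and Pdhb did not pass. Pdha1 encodes the E1 alpha subunit, the regulated part of the complex, at chrX:160122209-160138413. It had 95.7, 88.5, 89.4 and 91.5 CPM in H_O, 99.6, 103, 101 and 107 in L_O, 77.9, 81.7, 80.6 and 80.3 in H_C, and 85.8, 86.7, 89.4 and 83.8 in L_C. L_O was the highest group and H_C the lowest, with no overlap between ox-LDL groups and their controls. Pdha1 rose by 0.25 ± 0.04 (adjusted p = 0.000159) in low glucose and 0.19 ± 0.04 (adjusted p = 0.00266) in high glucose. Annotated exons of Map3k15 overlap 16.1% of the exon bases of Pdha1, as those of 1 other gene overlap 15.3% of Pkm, and the sources used here do not give the strand setting of the counting.

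Dlat, the E2 core of the complex, had 56.9, 64.8, 58.9 and 64.5 CPM in H_O, 60.1, 65.0, 54.8 and 62.6 in L_O, 58.3, 55.0, 52.8 and 54.9 in H_C, and 50.6, 51.5, 53.5 and 50.0 in L_C. L_O lay above L_C without overlap, and H_O and H_C overlapped. The log2 fold changes were 0.24 ± 0.06 (adjusted p = 0.00576) and 0.15 ± 0.06 (adjusted p = 0.0838). Dld, the E3 subunit, which is shared with the 2-oxoglutarate dehydrogenase complex, had 89.9, 92.7, 87.0 and 90.1 CPM in H_O, 92.2, 97.4, 97.8 and 91.4 in L_O, 81.4, 84.2, 84.8 and 86.6 in H_C, and 76.4, 84.2, 83.3 and 69.6 in L_C. Each ox-LDL group lay above its control without overlap. Dld rose by 0.27 ± 0.05 (adjusted p = 0.000972) in low glucose and did not pass in high glucose, at 0.09 ± 0.05 (adjusted p = 0.259). Pdhb, the E1 beta subunit, lay between 43.5 and 57.1 CPM and passed in no contrast.

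Of the 11 members listed under the TCA cycle, which include the cytosolic Idh1 and Mdh1, 5 rose and 0 fell with ox-LDL in low glucose. In high glucose 3 rose and 1, the cytosolic Idh1, fell. Cs encodes citrate synthase, which opens the cycle, and had 189.7, 194, 198 and 193 CPM in H_O, 204, 198, 199 and 198 in L_O, 180.2, 176, 179 and 189 in H_C, and 183, 182, 179 and 179 in L_C. Each ox-LDL group lay above its control without overlap. Cs rose in low glucose by 0.14 ± 0.03 (adjusted p = 0.00458), and its value in high glucose was 0.10 ± 0.03 (adjusted p = 0.0535), which passed without L_C replicate 4 (adjusted p = 0.0133).

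The isocitrate dehydrogenases moved in different directions. Idh2, the mitochondrial enzyme that uses NADP, at chr7:80094846-80115392, had 40.4, 39.7, 40.9 and 43.0 CPM in H_O, 50.4, 51.6, 49.6 and 46.7 in L_O, 36.4, 33.4, 33.2 and 32.1 in H_C, and 36.7, 38.3, 39.8 and 31.2 in L_C. L_O stood highest and H_C had the lowest mean, while the lowest library was L_C replicate 4, and neither ox-LDL group overlapped with its control. Idh2 rose by 0.44 ± 0.07 (adjusted p = 8.03e-05) in low glucose, or by 0.37 without that library, and 0.28 ± 0.07 (adjusted p = 0.00594) in high glucose. Idh3a, the catalytic subunit of the NAD-dependent enzyme of the cycle, had 39.6, 38.5, 36.8 and 37.8 CPM in H_O, 43.1, 40.3, 36.5 and 36.6 in L_O, 29.9, 31.7, 32.1 and 29.2 in H_C, and 34.0, 32.4, 34.1 and 28.4 in L_C. Every ox-LDL library lay above every control library, and Idh3a rose by 0.28 ± 0.07 (adjusted p = 0.0052) and 0.31 ± 0.07 (adjusted p = 0.00271). Idh1, the cytosolic NADP enzyme, was the most abundant of the 3 per kb, with 322, 309, 319.6 and 316 CPM in H_O, 326, 327, 336 and 329 in L_O, 349.6, 371, 343 and 363 in H_C, and 373, 369, 351 and 299 in L_C. H_O lay below H_C, and L_O overlapped with L_C through L_C replicate 4. Idh1 fell in high glucose by a log2 value of -0.17 ± 0.05 (adjusted p = 0.0296), a call lost in 6 of 26 other settings. In low glucose its value was -0.08 ± 0.05 (adjusted p = 0.324) with all libraries and -0.14 without L_C replicate 4 (adjusted p = 0.00194).

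The members past isocitrate cover the second part of the cycle. Ogdh, of the 2-oxoglutarate dehydrogenase complex, and Suclg1, of succinyl-CoA ligase, passed in no contrast, with 266 to 336 and 43.3 to 55.0 CPM. Suclg1 passed in H_O against H_C without L_C replicate 4, at 0.18 (adjusted p = 0.0206). Sdha, the flavoprotein of succinate dehydrogenase, had 252, 250.1, 249.8 and 248 CPM in H_O, 246, 260.0, 258 and 243 in L_O, 236, 239, 245 and 229 in H_C, and 244, 226, 228 and 211 in L_C. H_O lay above H_C while L_O overlapped with L_C. Sdha rose in low glucose by 0.15 ± 0.04 (adjusted p = 0.0163), a call lost in 3 of 26 other settings, and its value in high glucose was 0.08 ± 0.04 (adjusted p = 0.25). Sdhb, its iron-sulphur subunit, lay between 64.0 and 88.2 CPM and passed in no contrast, although it passed in H_O against H_C without L_C replicate 4, at 0.17 (adjusted p = 0.0046).

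Fh1 encodes fumarase and had 35.2, 34.9, 34.1 and 34.3 CPM in H_O, 35.7, 36.4, 39.3 and 35.1 in L_O, 29.0, 33.1, 30.2 and 31.8 in H_C, and 33.7, 31.8, 30.4 and 27.6 in L_C. Each ox-LDL group lay above its control without overlap. Fh1 rose in low glucose by 0.25 ± 0.06 (adjusted p = 0.00846) and stood at 0.16 ± 0.06 (adjusted p = 0.0941) in high glucose, where it passed without L_C replicate 4 (adjusted p = 0.0348). Mdh2, the mitochondrial malate dehydrogenase, had 94.5, 102, 99.0 and 98.9 CPM in H_O, 109, 116, 103 and 102 in L_O, 88.7, 90.4, 82.4 and 90.6 in H_C, and 102, 99.6, 108 and 104 in L_C. H_C was the lowest group, H_O lay above it, and L_O and L_C overlapped. Mdh2 rose with ox-LDL in high glucose by 0.16 ± 0.05 (adjusted p = 0.0237), a call lost in 4 of 26 other settings, and stood at 0.06 ± 0.05 (adjusted p = 0.452) in low glucose. The cytosolic Mdh1 lay between 112.5 and 132.6 CPM except in L_C replicate 4, at 85.3 CPM. Its log2 fold change in low glucose was 0.02 with all libraries and -0.11 without that library (adjusted p = 0.913 and 0.043).

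With all libraries in the fit, high glucose by itself moved few members. In H_C against L_C, 1 member rose and 2 fell, a called share of 8.57% beside 12.8% of all tested rows (5.02% higher and 7.75% lower). Pkm rose by 0.31 ± 0.04 on the log2 scale (adjusted p = 0.000126), a fold of 1.24. Mdh2 fell by a log2 value of -0.23 ± 0.05 (adjusted p = 0.00469), and Pfkfb3 by one of -0.17 ± 0.05 (adjusted p = 0.0335), which was lost in 7 of 26 other settings. The groups did not overlap in 6 members, beside 17.4% of all rows.

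This comparison depended on L_C replicate 4. Without it, 9 members were lower in H_C than in L_C, and the 7 that were added were Hk3 at -0.19, Tpi1 at -0.15, Eno1 at -0.10, Pdha1 at -0.12, Idh2 at -0.18, Sdhb at -0.25 and Mdh1 at -0.16 on the log2 scale. Of all 13734 rows tested without it, 1265 were lower and 922 higher, so that a larger share of members than of all rows was then called. Pkm remained the single member that was higher, at 0.27 (adjusted p = 1.24e-05).

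Under ox-LDL, Pkm was again higher in the high-glucose group, in a comparison where osmolarity was not matched as labelled. In H_O against L_O, 3 members rose and 2 fell, a called share of 14.3% beside 6.11% of all tested rows (2.71% higher and 3.39% lower), and the groups did not overlap in 10 members, beside 17.7% of all rows. Pkm rose by 0.36 ± 0.04 (adjusted p = 6.34e-05), a fold of 1.28. Pgam1 rose by 0.12 ± 0.03 (adjusted p = 0.0303) and Slc2a6 by 0.31 ± 0.08 (adjusted p = 0.0313), and each of these calls was lost in 7 of 26 other settings. Pdha1 fell by a log2 value of -0.17 ± 0.04 (adjusted p = 0.0175) and Idh2 by one of -0.27 ± 0.07 (adjusted p = 0.0211), calls lost in 3 and 6 of 26 other settings. Idh2 was the single TCA member that passed. Hk3 was also called, at -0.09 (adjusted p = 0.0302), once L_C replicate 4 was left out. The comparisons between media share libraries with the ox-LDL comparisons.

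The difference between the ox-LDL effect in high and in low glucose passed for 0 of the 35 members, beside 0.0148% of all tested rows (0.00739% in each direction). The labels name mannitol for L_C and not for L_O, so glucose and mannitol cannot be told apart in this difference as labelled. In edgeR's test 4 of the 35 members had an unadjusted p under 0.05, beside 1161 of all 13527 tested rows, and DESeq2 also called 0 members. Pfkfb3 had the lowest adjusted p, 0.311, with a difference of 0.23 ± 0.07 on the log2 scale. For Pkm the difference was 0.05 ± 0.06, with a 95% interval of -0.08 to 0.19, and for Hk3 it was -0.01 ± 0.11, with an interval of -0.25 to 0.23. The interval for Slc2a6 ran from -0.02 to 0.49 and that for Idh2 from -0.37 to 0.05. A call in 1 medium and not in the other, as for Hk1, Dld, Cs, Fh1 and Mdh2, is thus no shown difference between media.

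Further genes of the same routes were counted by list, and each called share is set beside the 25.8% of all tested rows called in low glucose and the 21.9% called in high glucose. Counts without L_C replicate 4 stand beside 1891 rows higher and 1990 lower of 13734 in low glucose, and 1964 and 2001 in high glucose. Of the 9 tested genes of the pentose phosphate pathway, which branches from glucose 6-phosphate and makes NADPH, 6 rose and 0 fell in each ox-LDL comparison, a called share of 66.7% in each, with median log2 fold changes of 0.23 and 0.22. Pgd, 6-phosphogluconate dehydrogenase, averaged 545 ± 7.38 CPM in H_O and 518 ± 12.6 in L_O, against 356 ± 12.9 in H_C and 324 ± 12.4 in L_C, and rose by 0.68 ± 0.04 (adjusted p = 4.67e-10) in low and 0.61 ± 0.04 (adjusted p = 1.61e-09) in high glucose. G6pdx, the entry enzyme of the branch, rose by 0.39 ± 0.06 and 0.46 ± 0.06, H6pd, its counterpart in the endoplasmic reticulum, by 0.54 ± 0.05 and 0.76 ± 0.05, and the transaldolase Taldo1 by 0.75 ± 0.12 and 0.51 ± 0.12. Without L_C replicate 4 the values in low glucose were 0.59 for Taldo1 and 0.49 for G6pdx, and the list then again had 6 that rose in each comparison. Taldo1 in H_C against L_C stood at 0.32 (adjusted p = 0.0759) with all libraries and passed without that library, at 0.17 (adjusted p = 0.00603). H6pd was also higher in H_O than in L_O, by 0.29 ± 0.05 (adjusted p = 0.00133), and Pgd in H_C than in L_C, by 0.14 ± 0.04 (adjusted p = 0.0252).

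Of 16 other tested glycolytic isoenzymes and regulators, 4 rose and 2 fell in low glucose, and 2 rose and 2 fell in high glucose, called shares of 37.5% and 25.0%. These counts were 3 and 2, and 4 and 2, without L_C replicate 4. Eno2, the neuronal-type enolase, averaged 13.3 ± 1.70 CPM in H_O and 11.6 ± 1.01 in L_O, against 26.9 ± 1.304 in H_C and 19.2 ± 2.83 in L_C. It fell with ox-LDL by log2 values of -0.73 ± 0.11 (adjusted p = 4.87e-05) and -1.02 ± 0.11 (adjusted p = 9.14e-07) and was higher in H_C than in L_C by 0.48 ± 0.10 (adjusted p = 0.0049). Eno2 thus moved opposite to Eno1 with ox-LDL. Ldhb, the lactate dehydrogenase subunit of the heart, fell by log2 values of -0.63 ± 0.13 (adjusted p = 0.00124) and -0.43 ± 0.13 (adjusted p = 0.0254), and by one of -0.43 ± 0.13 (adjusted p = 0.0349) in H_C against L_C. Eno1b, a retrocopy of Eno1, stood at 0.74 ± 0.16 (adjusted p = 0.00182) and 0.34 ± 0.16 (adjusted p = 0.155), and Adpgk, the ADP-dependent glucokinase, at 0.39 ± 0.11 (adjusted p = 0.00986) and 0.25 ± 0.11 (adjusted p = 0.109). Whether reads from Eno1 entered the counts of Eno1b was not tested.

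Among 14 other tested TCA cycle genes, 4 rose and 1 fell in each ox-LDL comparison, a called share of 35.7%. Without L_C replicate 4, 3 rose and 1 fell in low glucose, and 9 rose and 1 fell in high glucose. The gene that fell was Acod1, which takes aconitate out of the cycle to make itaconate. It averaged 39.3 ± 31.3 CPM in H_O and 23.3 ± 8.00 in L_O, against 122 ± 21.1 in H_C and 203 ± 44.1 in L_C, a wide spread in H_O, with log2 fold changes of -3.12 ± 0.38 (adjusted p = 4.81e-06) and -1.63 ± 0.35 (adjusted p = 0.0023). Suclg2, the GTP-forming subunit of succinyl-CoA ligase, rose by 0.68 ± 0.11 (adjusted p = 0.000133) and 0.72 ± 0.11 (adjusted p = 8.71e-05). Idh3b, the beta subunit of the NAD-dependent isocitrate dehydrogenase, passed in high glucose alone, at 0.17 ± 0.05 (adjusted p = 0.0267).

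The list of 11 other pyruvate dehydrogenase and pyruvate entry genes had 2 that rose and 1 that fell in low glucose, and 1 that rose and 2 that fell in high glucose, a called share of 27.3% in each. Leaving out L_C replicate 4 gave 0 and 1, and 1 and 3. Pdhx, which binds E3 into the complex, rose by 0.28 ± 0.09 (adjusted p = 0.023) and 0.29 ± 0.09 (adjusted p = 0.0213), and the first of these calls was lost without that library, at 0.24 (adjusted p = 0.0539). The phosphatase Pdp2, which activates the complex, fell by log2 values of -0.23 ± 0.07 (adjusted p = 0.0196) and -0.24 ± 0.07 (adjusted p = 0.0187). The pyruvate carrier subunit Mpc1 passed in H_C against L_C alone, at -0.19 ± 0.05 (adjusted p = 0.0273).

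Of 14 side-route genes of citrate, malate and glutamate, 3 rose and 2 fell in low glucose, and 1 rose and 2 fell in high glucose, called shares of 35.7% and 21.4%. With L_C replicate 4 left out they were 4 and 2, and 5 and 2. The cytosolic malic enzyme Me1 averaged 3.75 ± 0.934 CPM in H_O and 3.15 ± 0.711 in L_O, against 1.86 ± 0.493 in H_C and 1.40 ± 0.429 in L_C, and rose by 1.16 ± 0.26 (adjusted p = 0.00293) and 1.01 ± 0.26 (adjusted p = 0.00812). Glud1, glutamate dehydrogenase, rose in low glucose by 0.17 ± 0.04 (adjusted p = 0.00245), and the citrate carrier Slc25a1 fell there by a log2 value of -0.18 ± 0.05 (adjusted p = 0.0147). In high glucose Glud1 stood at 0.08 (adjusted p = 0.13) and passed without L_C replicate 4 (adjusted p = 0.0421). Among 8 other tested transporters of glucose and monocarboxylates, 1 rose in low glucose and 2 in high glucose, and 0 fell, called shares of 12.5% and 25.0%, with the same counts without L_C replicate 4. Slc16a6, a monocarboxylate transporter family member, averaged 56.2 ± 2.23 CPM in H_O and 80.8 ± 2.77 in L_O, against 39.7 ± 2.05 in H_C and 57.6 ± 3.62 in L_C. It rose with ox-LDL by 0.49 ± 0.05 and 0.50 ± 0.06 and was lower in high glucose, by log2 values of -0.54 ± 0.06 in H_C against L_C and -0.52 ± 0.05 in H_O against L_O (adjusted p at most 1.6e-05).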

How the data were processed

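The authors deposited 1 table of whole-number read counts per gene for the 16 libraries, used here as raw counts. All 16 columns matched a sample. HISAT2, DESeq2 and the mouse build mm10 are named, without versions or roles, per the submitters' processing notes. The counting tool, annotation and strand setting are not given in the sources used here. Depth was 32596640 to 41712885 counts per library. Of 15871 rows, 1594 are unannotated regions.

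Rows passing filterByExpr by group (13527, with 2344 left out) entered a fit in edgeR 4.0.16 under R 4.3.3 (TMM factors, glmQLFit and glmQLFTest, two-sided) with a mean for each of the 4 groups and 12 residual degrees of freedom. Benjamini-Hochberg adjustment ran over all tested rows of each of 5 contrasts, with a threshold of 0.05. SE and 95% intervals come from the fit. Exon lengths, coordinates and stretches of 50 bases shared between genes come from the GENCODE M21 annotation of GRCm38 (mm10), and promoters from RefSeq on GRCm38.p6. The pipeline was tested on simulated data.

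The members and the lists were chosen with earlier results of these data known. Every library's value is given for Gapdh, for the 16 members with the smallest adjusted p over the 5 contrasts and for the isoenzymes of the hexokinase, phosphofructokinase, aldolase and isocitrate dehydrogenase families. From each other list, up to 4 genes with the smallest adjusted p among those that passed were taken, and most are printed. Of 92 genes in those lists, those with no row in the table were not analysed here, and some list genes are not reported here.

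Alternatives were RLE, upper-quartile and no scaling, all rows kept, only rows reaching 1 CPM in 4 or more samples, limma-voom 3.58.1 with and without sample quality weights, DESeq2 1.42.0, a replicate block, separate fits of 8 libraries per pairwise contrast, and each library left out in turn. Counts and named genes of the pathway lists without L_C replicate 4 were added after seeing the data.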

Additional observations from a re-analysis of the deposited data

Results flagged for a closer look

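Within groups of 4 libraries, a gap test at the 95% level singled out a highest or lowest library in 10 of 140 groups of member values, and chance alone flags about 1 in 20 groups. Of the 10, 5 were in L_C replicate 4. There, Pgk1 stood at 128 CPM (the others 223 to 241), Hk3 at 748 CPM (the others 1031 to 1073), Ldha at 349 CPM (the others 449 to 461), Mdh1 at 85.3 CPM (the others 129 to 133) and Hk1 at 107 CPM (the others 98.2 to 99.3). In other libraries, Slc2a6 stood at 28.7 CPM in L_O replicate 4 (the others 27.4 to 27.6), Slc16a3 at 31.6 CPM in H_O replicate 1 (the others 30.4 to 30.6) and Aldoa at 963 CPM in H_O replicate 3 (the others 928 to 933). Eno1 stood at 257 CPM in H_C replicate 2 (the others 266 to 267) and Cs at 204 CPM in L_O replicate 1 (the others 198 to 199). Gapdh in L_C replicate 4 did not pass this gap test, since the other libraries of its group also varied widely. No member passed the test of a difference in ox-LDL effect between the glucose media.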

How the results depend on the processing

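Over 26 other settings, 25 of the 36 calls of members held in all and 11 were lost in at least 1, and Pkm, Eno1, Pgk1, Aldoa, Hk3, Idh3a and, with ox-LDL, Slc2a6, Idh2 and Pdha1 were among those that held. Calls gained in other settings numbered 84, over 4515 combinations of member, contrast and setting. The 1 reversal was not of a call, since Mdh1 did not pass in L_O against L_C with all libraries. Without L_C replicate 4 it passed with the opposite sign, at -0.11 on the log2 scale. Leaving out other libraries gave it values up to 0.0742. Values that changed sign without passing, as those of Gapdh and Ldha without L_C replicate 4, are not counted as reversals. The cause of these changes was not tested.

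With no scaling beyond library totals, 19 members rose in each ox-LDL comparison, 3 rose and 1 fell in H_C against L_C, and all rows split into 2857 higher and 1392 lower in L_O against L_C and 2176 higher and 1166 lower in H_O against H_C, against 1623 and 1867, and 1406 and 1556, with TMM. The median shift of all rows was then 0.0858 and 0.0738. Members lower in L_O against L_C numbered 5 under the 1 CPM filter, DESeq2 and limma-voom with quality weights. The quality weights gave 16 members higher in H_O against H_C, 2 higher and 7 lower in H_C against L_C, and 790 rows higher and 1056 lower in H_O against L_O. In H_C against L_C, DESeq2 gave 3 members higher, limma-voom 2 higher, and upper-quartile factors 1 lower. The fit of the 8 libraries compared gave 1 member lower, 340 rows higher and 574 lower in H_C against L_C, and 718 rows higher and 901 lower in H_O against L_O, and has no value for the interaction. Interaction calls over all rows were 1 higher and 1 lower, against 76 and 15 with DESeq2, 0 and 0 with limma-voom, and 60 and 15 with quality weights.

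Leaving out 1 library at a time gave 11 to 14 members higher and 2 to 5 lower in L_O against L_C, 8 to 16 higher and 2 to 4 lower in H_O against H_C, 1 to 2 higher and 1 to 9 lower in H_C against L_C, 1 to 3 higher and 0 to 3 lower in H_O against L_O, and 0 in the interaction. Over all rows it gave 1342 to 1891 higher and 1627 to 1990 lower, 1146 to 1964 and 1320 to 2001, 463 to 922 and 789 to 1265, 240 to 749 and 286 to 1014, and 0 to 41 and 0 to 12, in the same order. The highest count came without L_C replicate 4 in each of these except members higher in the ox-LDL comparison in low glucose, in H_C against L_C and in H_O against L_O, and the interaction of members, which had 0 throughout.

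With the replicate number as a block, 12 members were higher and 2 lower in L_O against L_C, 10 and 3 in H_O against H_C, 1 and 2 in H_C against L_C, and 2 and 2 in H_O against L_O, and the interaction had 0 rows in each direction. The numbers gave no sign of a pairing of libraries, although correlations over all rows with few libraries cannot exclude one. The 24 same-numbered pairs correlated between -0.164 and 0.0666, 0 above 0.1, and 3 of 16 libraries correlated best with their own number.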
